A study of Mus musculus with 16 samples.

Results

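Olfr690, Olfr691, Olfr544 and Olfr558 are mouse odorant receptors of class I, known from earlier work for responses to carboxylic acids, and they were followed here in olfactory cells of mice exposed to a carboxylic acid odor. They were taken by gene name from the deposited expression table, with the brightest probe set of a gene standing for it, and each of the 4 had exactly 1 probe set. They are 4 of the 1091 olfactory receptor genes and of the 19505 named genes measured, and 121 of those receptors belong to class I. Olfr78, another class I receptor known for short acids, was not analysed here.

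The mice carried S100a5-tauGFP, a fluorescent reporter of S100a5, a calcium-binding protein gene whose expression in olfactory sensory neurons follows their activity. In the octanoic acid group, mice received pulses of octanoic acid, a straight-chain saturated fatty acid, at a concentration the labels do not give. In the clean air group, mice of the same genotype received the vehicle, clean air, on the same schedule. The 24 mice, of both sexes and aged 7 to 12 weeks, spent 40 h in chambers ventilated at 3.1 L per min, and from 26 h a pulse of 10 s came every 20 min. Each pool combined the olfactory mucosa of 3 mice, sorted into GFP+ and GFP- cells, with 4 pools for each treatment and 16 arrays: octanoic acid GFP+, octanoic acid GFP-, clean air GFP+ and clean air GFP-, with 4 arrays each. All groups carry the reporter, and the GFP- sort holds every cell the gate left out, neurons or not.

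Each mature olfactory neuron expresses mainly 1 receptor gene. An odorant that binds this receptor activates the G protein Golf and adenylyl cyclase III, and cyclic AMP then opens a channel in the cilia. Class I receptors are the smaller, evolutionarily older group of mammalian odorant receptors, they are clustered on chromosome 7 in the mouse, and many of them bind water-soluble acids. When an odor drives a neuron, reporter fluorescence is meant to carry that neuron into the GFP+ sort, so RNA of a responding receptor would be higher in GFP+ cells with the odor than with clean air. The measured quantity for that question is the difference between GFP+ and GFP- log2 signals of a pool, called GFP enrichment below, and its change between treatments is called the odor effect.

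All 4 genes lie on chromosome 7. Olfr690 (MOR31-2, also Ors18) and Olfr691 (MOR31-6) are neighbours, with no other measured olfactory receptor between them in the RefSeq order, and both belong to family 31. In the same order of measured receptors Olfr544 (MOR42-3, also Ors6) lies between Olfr543 and Olfr545, both of family 42. Olfr558 (MOR18-1, also POGR) belongs to family 18. The sequences of 250 bases before the RefSeq-annotated starts of 3 of them (RefSeq, build GRCm38.p6, 5′ to 3′) are shown because Olfr690 and Olfr691 are neighbours of 1 family with different values below, and Olfr544 holds a TAATTG, in capitals.

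Olfr690, chr7:105330279-105330528, minus strand: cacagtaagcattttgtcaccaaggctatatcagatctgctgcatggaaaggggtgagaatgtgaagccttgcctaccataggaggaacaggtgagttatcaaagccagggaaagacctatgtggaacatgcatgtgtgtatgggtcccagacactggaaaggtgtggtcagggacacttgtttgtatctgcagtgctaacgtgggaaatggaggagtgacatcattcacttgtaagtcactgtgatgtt

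Olfr691, chr7:105337715-105337964, minus strand: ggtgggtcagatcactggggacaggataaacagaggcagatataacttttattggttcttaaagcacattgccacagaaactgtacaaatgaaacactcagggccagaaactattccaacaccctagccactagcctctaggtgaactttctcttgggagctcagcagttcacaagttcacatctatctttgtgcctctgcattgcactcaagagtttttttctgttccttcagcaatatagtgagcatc

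Olfr544, chr7:102488308-102488557, minus strand: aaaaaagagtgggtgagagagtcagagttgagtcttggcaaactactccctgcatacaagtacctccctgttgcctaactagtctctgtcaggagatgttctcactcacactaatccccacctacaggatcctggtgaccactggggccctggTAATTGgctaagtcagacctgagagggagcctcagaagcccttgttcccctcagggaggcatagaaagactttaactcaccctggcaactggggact

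Both strands of the 4 windows were searched for TAATTA and TAATTG, homeodomain-type cores that are common near receptor genes, and copies of the pair may share bases. TAATTG was found in Olfr544 alone of the 4, with its first base 97 bases before the start, and 22.9% of 925 receptor windows hold it. TAATTA was found in none of the 4 and in 17.9% of receptor windows. One or both stood in 36.8% of receptor windows and in 11.3% of 32851 windows of all genes. A match describes letters in the window, and receptor models may lack their first noncoding exon, so a window need not be the promoter.

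Signals are log2 values of 1 probe set per gene. Background was set at 6.20 log2, the middle value of 5222 negative controls, with 5.80 to 6.77 on single arrays, and 95% of these controls lay under 10.4 log2. All values of the 4 receptors lie under that level, so a value over the background does not by itself show expression, and levels of different genes cannot be compared. Array backgrounds ranged over 6.21 to 6.71 in octanoic acid GFP+ arrays against 5.80 to 6.02 in octanoic acid GFP- arrays, and over 6.28 to 6.44 in clean air GFP+ against 5.88 to 6.77 in clean air GFP- arrays. The reporter's own gene was higher in GFP+ cells by 1.53 ± 0.52 log2 with octanoic acid and by 1.32 ± 0.22 log2 with clean air (SD, n = 4 pools each), in all pools of each, as the gate chose. Of 10 mature neuron markers, 1, Ano2, rose and none fell in GFP+ cells in each treatment. All of these markers but Stoml3 are also in the transduction cascade list below, so the counts of both lists are not separate evidence. Over all genes 6.26% rose with octanoic acid and 5.83% with clean air. With each array centred on its median 7 of the 10 rose in each, where 7791 and 6082 of 19505 genes rose. The count was 0 in each with each array centred on its receptor median or set against its own background. It was 2 and 0 after quantile normalization, and 0 with clean air under the replicate block. Omp, a marker of mature olfactory neurons, averaged 18.84 log2 in octanoic acid GFP+ cells, 18.67 in octanoic acid GFP- cells, 18.83 in clean air GFP+ cells and 18.69 in clean air GFP- cells.

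Olfr690 was lower in GFP+ cells than in GFP- cells of the same mice in all 8 pools. With octanoic acid its log2 signals were 5.89, 6.98, 5.84 and 5.50 in GFP+ cells of pools 1 to 4, against 8.15, 8.09, 7.59 and 7.46 in GFP- cells of the same pools. With clean air they were 6.65, 7.61, 4.69 and 5.04 in GFP+ cells, against 8.25, 8.0, 8.38 and 7.78 in GFP- cells. The groups did not overlap in either treatment, with clean air by a narrow margin (GFP+ up to 7.61, GFP- from 7.78). How many of all genes or receptors have groups without overlap was not counted. Olfr690 was over its own array's background on 1 of 4 and 2 of 4 GFP+ arrays, with octanoic acid and clean air in that order, and on all GFP- arrays. GFP enrichment was -2.26, -1.11, -1.74 and -1.96 log2 in the octanoic acid pools, a mean of -1.77 ± 0.49 (SD, n = 4 pools, 95% interval -2.67 to -0.87), and limma's adjusted p was 0.0109. In clean air pools it was -1.61, -0.39, -3.68 and -2.74 log2, a mean of -2.10 ± 1.42 (n = 4 pools, 95% interval -3.0 to -1.21), with a limma adjusted p of 0.0037. Both intervals and p values rest on 1 spread shared by all 8 pools, with a standard error of 0.41 log2 in each treatment. The clean air pools varied more, and their own SD would give a wider interval than the one printed. Because GFP+ means were under the background, the fold of the means was taken with GFP+ arrays under the background raised to it. On that basis Olfr690 signal was 2.69-fold lower in GFP+ than in GFP- cells in octanoic acid pools, and 2.71-fold lower in clean air pools. These folds are bounds with respect to the background only. Single pools differed by less, as in clean air pool 2 (-0.39 log2). The call with octanoic acid needed pool 1, without which the mean was -1.60 log2 and limma's adjusted p 0.0519. In these bulk samples, fewer cells that express a receptor and less of its RNA per cell cannot be told apart.

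Several lists of cell type markers were also lower in GFP+ cells. Over all genes 10.9% fell with octanoic acid and 9.58% with clean air. All 9 measured of 10 leukocyte markers fell in GFP+ cells in each treatment, and their summed signal was 9.99 to 11.76 log2 in octanoic acid GFP+ arrays against 16.91 to 18.70 in octanoic acid GFP- arrays, and 9.69 to 11.30 in clean air GFP+ against 16.34 to 18.11 in clean air GFP- arrays, with Cd52, Coro1a, Tyrobp and Fcer1g under the background in GFP+ cells. Of 10 immature neuron markers, 6 fell with octanoic acid and 5 with clean air, and their summed signal was 17.20 to 17.47 log2 in octanoic acid GFP+ arrays against 17.33 to 17.72 in octanoic acid GFP- arrays, and 17.18 to 17.47 in clean air GFP+ against 17.43 to 17.63 in clean air GFP- arrays. Markers of globose basal and dividing cells fell for all 5 measured of 8, and their summed signal was 7.15 to 7.52 log2 in octanoic acid GFP+ arrays against 10.55 to 13.38 in octanoic acid GFP- arrays and 7.05 to 7.64 in clean air GFP+ against 10.91 to 12.48 in clean air GFP- arrays. All 5 (Neurog1, Kit, Mki67, Top2a and Cdk1) were under the background in GFP+ cells, and with values floored there 2 of the 5 fell in each treatment. For the 6 microvillous cell markers, 5 fell with octanoic acid and 6 with clean air, and with values floored at the background 3 and 4 did, since Trpm5, Ascl3 and Chat lay under it in GFP+ cells. Of 8 sustentacular cell markers 2 fell with octanoic acid and 3 with clean air. In each treatment 3 of 6 Bowman gland markers, 1 of 4 measured ensheathing glia markers and 0 of 4 horizontal basal cell markers fell. The 1 measured of 4 erythroid cell markers fell in each. Of 4 measured guanylyl cyclase D neuron markers 2 and 1 fell, octanoic acid first, and of 2 measured vomeronasal neuron markers 1 in each. The part of these cells in the Olfr690 values was not tested. Across the scalings of the arrays tried, all 9 leukocyte markers stayed lower. Other lists moved, given here with octanoic acid first. With each array centred on its median, 6 and 5 of the 10 immature neuron markers fell and 2 and 2 rose. Of the 6 microvillous cell markers 5 and 5 fell there, and 4 and 5 with each array centred on its receptor median.

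Olfr691, the neighbour of Olfr690 and its relative, pointed the other way but did not pass the test. With octanoic acid its log2 signals were 7.48, 6.89, 6.71 and 7.36 in GFP+ cells, against 7.12, 6.66, 5.67 and 6.62 in GFP- cells. With clean air they were 7.96, 5.94, 6.79 and 7.45 in GFP+ cells, against 6.34, 6.06, 6.72 and 6.19 in GFP- cells. The groups overlapped in both treatments, with pool 2 of clean air the only pool in which GFP+ was under GFP-. GFP enrichment averaged 0.59 ± 0.37 log2 with octanoic acid (SD, n = 4 pools, 95% interval -0.01 to 1.19, limma adjusted p 0.17). With GFP- arrays under the background raised to it, the fold of the means was 1.38. The interval includes 0, so this fold sets no least rise. With clean air GFP enrichment averaged 0.71 ± 0.86 log2 (n = 4 pools, 95% interval 0.11 to 1.31, limma adjusted p 0.117), and no fold is given because both groups lay at the background. Without clean air pool 1 the clean air mean was 0.40 (limma adjusted p 0.424), and over all pools left out in turn it lay between 0.40 and 0.98. These values depend on the scaling of the arrays: with each array centred on its median they were 0.90 and 0.98 (limma adjusted p 0.0213 and 0.0184), and after quantile normalization 0.86 and 0.88 (0.0372 and 0.0396), in each pair with octanoic acid first. With each array set against its own background, an alternative added after the data were seen, they were 0.14 and 0.58 (limma adjusted p 0.769 and 0.328).

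Olfr544, a receptor known to be activated by azelaic acid, a dicarboxylic acid, was over its own array's background on all 16 arrays and did not pass the test in either treatment. Its log2 signals were 8.11, 7.32, 7.20 and 7.33 in octanoic acid GFP+ cells, against 7.72, 7.74, 6.90 and 7.71 in octanoic acid GFP- cells. With clean air they were 7.99, 7.38, 7.11 and 7.35 in GFP+ cells, against 8.06, 7.23, 6.89 and 7.00 in GFP- cells. The 4 groups overlapped, and the within-pool differences took both signs. GFP enrichment averaged -0.02 ± 0.43 log2 with octanoic acid (SD, n = 4 pools, 95% interval -0.41 to 0.36, limma adjusted p 0.943). With clean air it averaged 0.16 ± 0.17 log2 (n = 4 pools, 95% interval -0.23 to 0.55, limma adjusted p 0.608).

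Olfr558, known for responses to isovaleric acid and other short acids and also found in other tissues, lay at the background in every group. Its log2 signals were 6.05, 6.40, 6.31 and 5.75 in octanoic acid GFP+ cells, against 6.31, 6.03, 6.18 and 5.85 in octanoic acid GFP- cells. With clean air they were 6.24, 5.57, 6.23 and 5.99 in GFP+ cells, against 5.87, 6.34, 6.60 and 5.62 in GFP- cells. It was over its own array's background on 7 of 16 arrays, so these arrays put no measured level on Olfr558 and no fold is given. GFP enrichment was 0.04 ± 0.27 log2 with octanoic acid and -0.10 ± 0.56 log2 with clean air (SD, n = 4 pools each), with limma adjusted p values of 0.924 and 0.795.

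**Figure D1:**
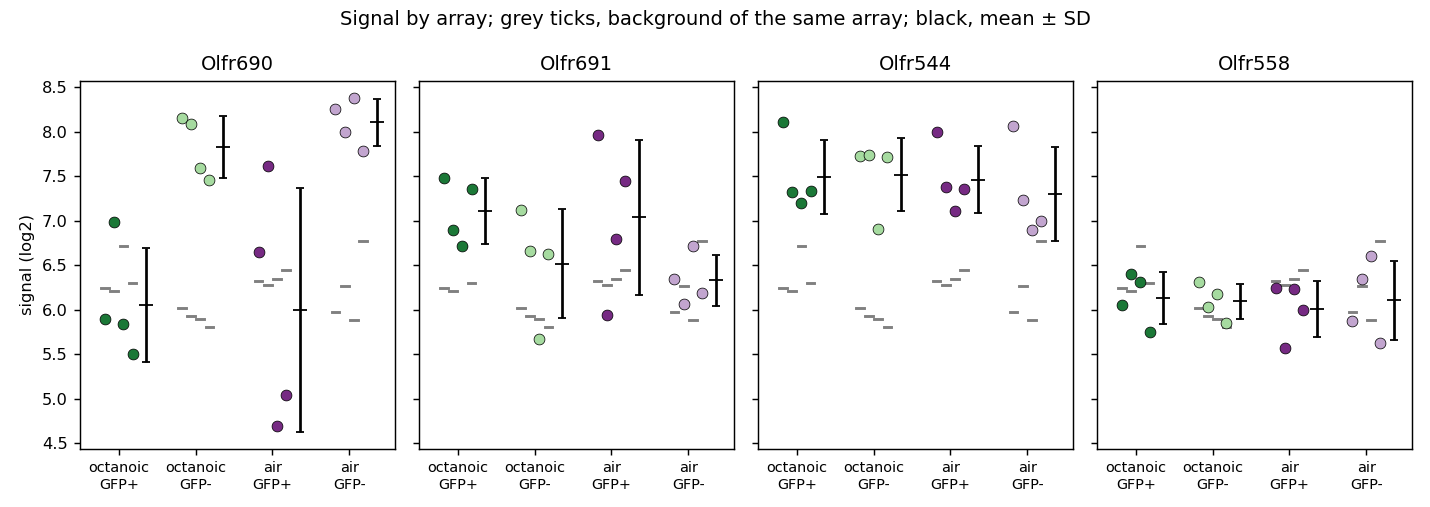
Log2 signal of Olfr690, Olfr691, Olfr544 and Olfr558 in octanoic acid GFP+, octanoic acid GFP-, clean air GFP+ and clean air GFP- arrays (4 each), with 1 point per array, the group mean ± SD and each array's own background as a grey tick. Olfr690 GFP+ points lie under all its GFP- points of the same treatment, while the groups of the other 3 receptors overlap. The share of all genes without overlap was not counted.

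Mean log2 signals of Olfr690 were 6.06 in octanoic acid GFP+, 7.82 in octanoic acid GFP-, 6.0 in clean air GFP+ and 8.10 in clean air GFP- cells, so both GFP+ groups stood below both GFP- groups, and within each sort the 2 treatments did not differ beyond the spread between pools. For Olfr691 the order from high to low was 7.11 in octanoic acid GFP+, 7.03 in clean air GFP+, 6.52 in octanoic acid GFP- and 6.33 in clean air GFP- cells, and no neighbours in it differed beyond their spread. Olfr544 spanned 7.52 to 7.30 and Olfr558 spanned 6.13 to 6.01 over the 4 groups, each span smaller than the largest SD within a group.

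Of the 4 receptors, 1, Olfr690, passed limma's adjusted p of 0.05 for lower signal in GFP+ cells with octanoic acid, where 10.9% of all genes passed, and 0 passed for higher signal, where 6.26% did. With clean air the same 1 of 4 was lower, where 9.58% of all genes passed, and 0 were higher, where 5.83% did. A count of 1 gene does not set the 4 apart from those shares. Among olfactory receptors the shares were larger, with 395 of 1091 higher and 273 lower with octanoic acid, and 410 higher and 255 lower with clean air. The median GFP enrichment of the 4 was 0.01 log2 with octanoic acid and 0.03 with clean air, against 0.14 and 0.33 over the 121 class I receptors, 0.27 and 0.42 over all receptors, and 0.11 and 0.11 over all genes.

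The odor effect, the question of the assay, was not called for any of the 4. Olfr690 changed by 0.34 log2 between the treatments (95% interval -0.93 to 1.61, limma adjusted p 0.957). This value had no stable sign or size: it was 0.91 without clean air pool 2, -0.19 without clean air pool 3, 0.12 without octanoic acid pool 2 or clean air pool 4, and 0.01 with values floored at the background. Olfr691 changed by -0.11 (95% interval -0.96 to 0.74, adjusted p 0.983), and by -0.39 to 0.19 with 1 pool left out in turn. For Olfr544 the change was -0.18 log2 (95% interval -0.73 to 0.36, adjusted p 0.951), and -0.32 to -0.05 with 1 pool left out in turn. For Olfr558, at the background throughout, it was 0.14 (95% interval -0.50 to 0.78, adjusted p 0.962). Across all genes, 0% passed limma's adjusted p of 0.05, with 871 of 19505 under an unadjusted p of 0.05, so 0 of 4 receptors is not a count that sets them apart. A p that misses the threshold does not show that octanoic acid left a receptor's enrichment as it was.

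**Figure D2:**
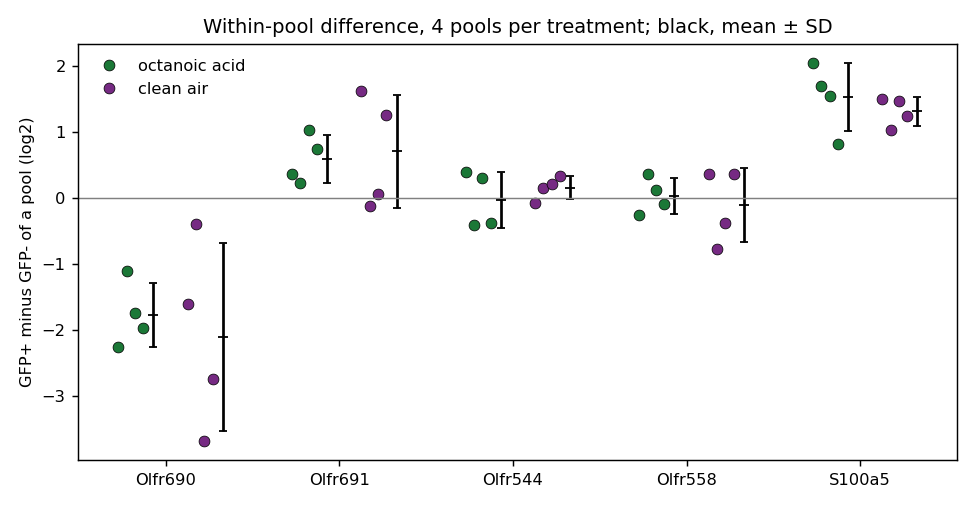
Within-pool GFP+ minus GFP- log2 signal of the 4 receptors, octanoic acid pools and clean air pools (4 each), and of S100a5, with 1 point per pool and the mean ± SD. All 8 pools of Olfr690 lie under 0, and the treatments overlap for every receptor.

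Within the sorted cells, octanoic acid against clean air gave differences that were small beside the spread between pools. In GFP+ cells they were 0.06 log2 for Olfr690, 0.08 for Olfr691, 0.04 for Olfr544 and 0.12 for Olfr558, with limma adjusted p values of 0.994, 0.988, 0.990 and 0.966. In GFP- cells the same differences were -0.28, 0.19, 0.22 and -0.02, with adjusted p values of 0.985, 0.985, 0.985 and 0.999. Here too 0% of all genes passed, with 716 and 741 genes under an unadjusted p of 0.05 in GFP+ and GFP- cells. The median over the 4 was 0.07 log2 in GFP+ cells and 0.09 in GFP- cells, beside -0.10 and 0.20 over class I receptors and -0.01 and 0.03 over all genes.

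Class I receptors as a group had a median odor effect of -0.32 log2, against -0.12 for all receptors and -0.03 for all genes, and none passed the adjusted test. Of the 121, 16 were lower and 0 higher at an unadjusted p of 0.05, and of all 1091 receptors 63 were lower and 20 higher. With the replicate block these counts were 31 lower and 1 higher in class I and 117 lower and 45 higher over receptors. Without octanoic acid pool 2 they were 33 and 0 in class I and 147 and 19 over receptors, and 896 of all genes were lower and 826 higher. Without clean air pool 1, 10 class I receptors were lower and 2 higher. The class I median depended on the scaling, at -0.07 log2 with each array centred on its receptor median, where 5 class I receptors were lower and 2 higher at an unadjusted p of 0.05. With values floored at the background it was -0.23 log2, with 9 lower and 0 higher, and with each array set against its own background -0.65 log2, with 40 lower and 0 higher. Centring on the receptor median and setting against the own background shift every gene of an array alike. The median over all genes moved too, to 0.22 log2 with the former and -0.36 with the latter, from -0.03 as deposited. The class I medians and counts under these scalings therefore include a shift shared by all genes.

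**Figure D3:**
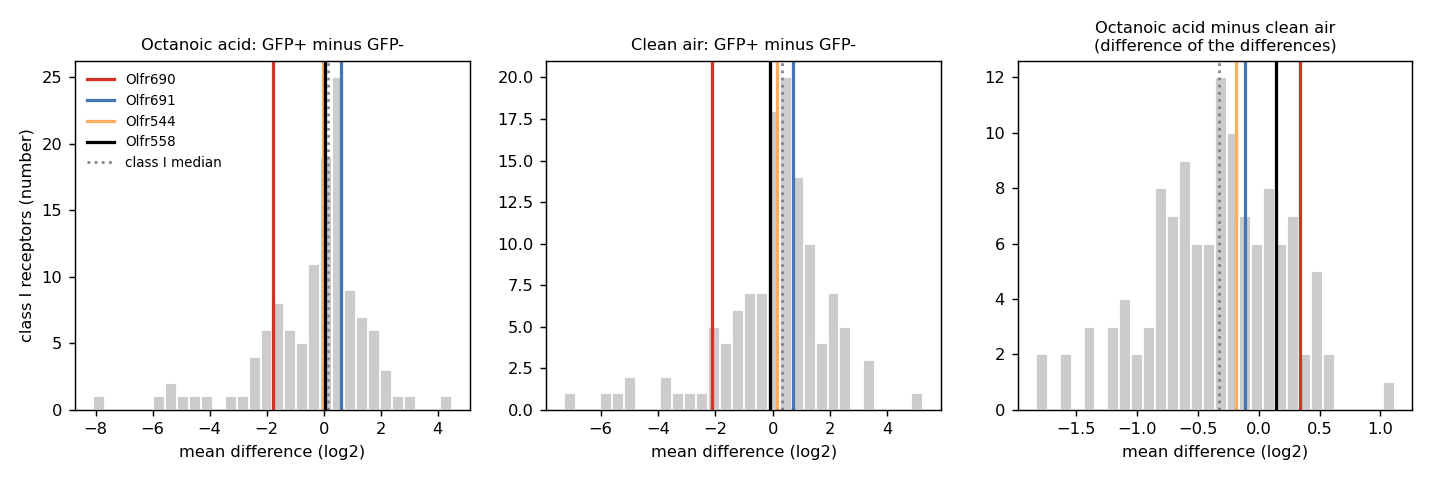
Histograms of the log2 differences over the class I receptors, with the positions of the 4 acid receptors marked, for GFP enrichment with octanoic acid, GFP enrichment with clean air and the odor effect. The dotted line is the class I median. The Olfr690 lines, at -1.77 and -2.10 in the enrichment panels and 0.34 in the odor effect panel, rest on GFP+ means under the background. All Olfr558 lines rest on group means under it, so the exact places of both receptors carry no rank.

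The 4 share a family number (18, 31 or 42) with 12 other receptors, 16 in all. With octanoic acid 4 of the 16 rose and 2 fell in GFP+ cells, and with clean air 5 rose and 1 fell, with Olfr690 the lowest in each treatment. The shares of all genes that rose and fell were 6.26% and 10.9% with octanoic acid and 5.83% and 9.58% with clean air. Among all receptors octanoic acid pools had 36.2% higher and 25% lower, and clean air pools had 37.6% higher and 23.4% lower. With the values as deposited, the 16 did not exceed the receptors' shares. Of the 11 of family 31, 3 rose and 1 fell with octanoic acid, and 4 rose and 1 fell with clean air, and the 1 that fell was Olfr690 in each. Mean signals of 11 of the 16 lay over the background. Counts that rose moved with the scaling, given here with octanoic acid first. With each array centred on its median 8 and 10 of the 16 rose. Beside them stood 507 and 532 of 1091 receptors, and 7791 and 6082 of 19505 genes. With values floored at the background 2 and 2 of the 16 rose, beside 693 and 817 of all genes.

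Olfr651 (MOR31-11) had the highest GFP enrichment of the 16 in each treatment, at 1.58 ± 0.83 log2 with octanoic acid and 3.41 ± 0.65 with clean air (SD, n = 4 pools each, limma adjusted p 0.00304 and 8.24e-06). Its log2 signals were 8.73, 9.54, 8.89 and 8.32 in octanoic acid GFP+ cells, against 7.26, 6.99, 7.12 and 7.77 in octanoic acid GFP- cells. With clean air they were 10.60, 8.94, 9.33 and 9.27 in GFP+ cells, against 6.54, 5.88, 6.64 and 5.42 in GFP- cells. The clean air GFP- mean of 6.12 lies under the background, and with values floored there its enrichment was 1.58 and 3.14 log2 (adjusted p 0.0405 and 0.00324). Its odor effect of -1.83 log2 (-1.56 floored) had an unadjusted p of 0.00119 and a limma adjusted p of 0.94, so it was not called.

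Olfr545 (MOR42-1, also S50), the family 42 neighbour of Olfr544, fell in GFP+ cells with octanoic acid and did not pass the test with clean air. GFP enrichment was -2.02, -0.68, -0.10 and -1.13 log2 in octanoic acid pools, a mean of -0.98 ± 0.81 (n = 4 pools, limma adjusted p 0.0245), against 0.12, 0.13, -0.26 and 0.63 in clean air pools, a mean of 0.16 ± 0.37 (n = 4 pools, adjusted p 0.756). The octanoic acid call rested on single pools: without pool 1 the mean was -0.63 log2 (adjusted p 0.107), without pool 4 it was -0.93 (adjusted p 0.0931), and after quantile normalization it was -0.71 (adjusted p 0.0794). The change between treatments itself, -1.14 log2, had an unadjusted p of 0.0107 and a limma adjusted p of 0.94.

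Other relatives that rose in both treatments were Olfr557 of family 18, at 1.45 log2 with octanoic acid and 1.18 with clean air (limma adjusted p 0.000972 and 0.00427), Olfr618 of family 31, at 1.35 and 1.96, and Olfr649 of family 31, at 1.28 and 1.82. With values floored at the background, Olfr557 was 0.40 and 0.27 (adjusted p 0.473 and 0.76) and Olfr649 was 0.85 and 1.12 (adjusted p 0.117 and 0.0521), since their GFP- means lay under the background. Olfr617 of family 31 was 0.72 with octanoic acid (limma adjusted p 0.0875, and 0.028 with the replicate number as a block) and 1.04 with clean air (adjusted p 0.019). The clean air call of Olfr617 was lost without clean air pool 1 (0.88, adjusted p 0.0984) and without clean air pool 2 (0.84, adjusted p 0.107), and without octanoic acid pool 4 its octanoic acid value passed (0.99, adjusted p 0.0356). Probe sets of close relatives may share sequence, and cross-hybridisation among them was not tested.

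**Figure D4:**
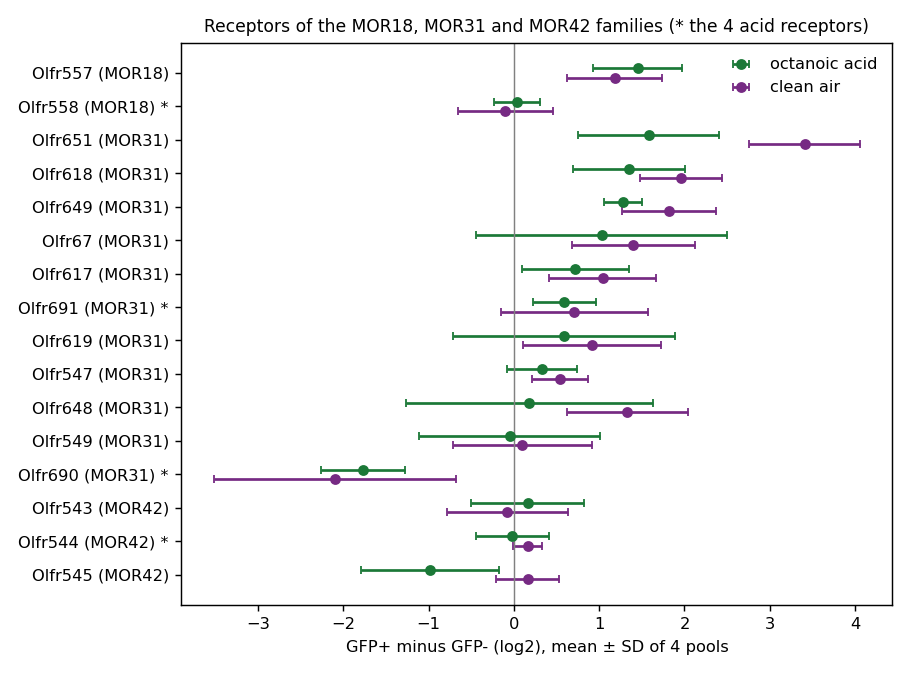
Mean GFP+ minus GFP- log2 signal (SD, n = 4 pools) of the 16 receptors of families 18, 31 and 42 with octanoic acid and with clean air, the 4 acid receptors starred. Olfr651 is the highest and Olfr690 the lowest in both treatments.

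The transduction cascade, the machinery all these receptors share, was followed with a list of 14 genes. The list also holds Rtp1, Rtp2, Reep1 and the mature neuron marker Omp, so its counts are not of cascade genes alone. Of these 1, Ano2, the calcium-activated chloride channel of the cilia, rose in GFP+ cells in each treatment, by 0.51 ± 0.07 log2 with octanoic acid and 0.50 ± 0.13 with clean air (n = 4 pools each, limma adjusted p 0.0214 and 0.0237), and none fell. The Ano2 call was narrow: it was lost without octanoic acid pool 1 or pool 4 (adjusted p 0.0684 and 0.0898) and without any 1 of the 4 clean air pools (adjusted p 0.0613 to 0.116), it was 0.0532 with clean air under the replicate block, and with each array set against its own background Ano2 was 0.05 and 0.38 log2. The count of 14 moved with the scaling. As deposited 1 rose in each treatment, where 6.26% of all genes rose with octanoic acid and 5.83% with clean air. With each array centred on its median 11 rose in each, where 7791 and 6082 of 19505 genes rose. With each array centred on its receptor median or set against its own background 0 rose in each. After quantile normalization 2 and 0 rose, and under the replicate block 0 rose with clean air. Gnal, the alpha subunit of Golf, was 0.14 and 0.24 log2, Adcy3, the cyclase, 0.23 and 0.45, and Cnga2, a subunit of the cyclic nucleotide channel, 0.29 and 0.22, with octanoic acid and clean air in that order, and none of these passed.

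Receptors with the most similar GFP enrichment over the 8 pools, by root mean square difference among receptors over the background, were Olfr655, Olfr1241 and Olfr870 for Olfr690, at 0.69, 0.74 and 0.78 log2 where the median of all receptors was 2.85. For Olfr691 they were Olfr666, Olfr76 and Olfr477, at 0.42, 0.46 and 0.47 against 1.52. For Olfr544 they were Olfr1305, Olfr212 and Olfr996, at 0.30, 0.31 and 0.32 against 1.61. The GFP+ group means of Olfr690 lie under the background, so its list leans on values with no order there. No list is given for Olfr558, which had no measured level. Olfr655 and Olfr666 are of class I and the others of class II.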

How the data were processed

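Clariom S arrays measured 16 samples, GFP+ and GFP- cells of 8 pools of 3 mice. The authors deposited log2 signals made with Affymetrix Expression Console, per the submitters' processing notes; its version, summary method and genome build are not given in the sources used here. That they are log2 was inferred from their range, 2.13 to 19.5. RefSeq names for GRCm38.p6 gave symbols and families. Of 28846 probe sets, 6640 were controls and 19572 had 1 symbol, and the brightest per gene left 19505 genes. Class I was read as MOR family 1 to 42, or from neighbouring receptors for 22 without a number.

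limma 3.58.1 in R 4.3.3 (lmFit, eBayes, two-sided) tested the 8 within-pool differences (GFP+ minus GFP-), for the odor effect and for each treatment against 0, and octanoic acid against clean air within GFP+ and GFP- arrays (4 against 4). The tests of each treatment against 0 used 1 spread per gene, shared by all 8 differences, so their intervals do not follow the printed SD of 4 pools. Adjustment was Benjamini-Hochberg over all genes at 0.05. The fit was tested on simulated data. Labels do not say that numbers mark a shared day. A fold is a lower bound where the dimmer group's mean lay under the background or within 1 SD above it (a limit set after the values were seen), with arrays under it raised to it; no fold is given where both lay there. The number of arrays limits the precision, and the pools are the replicates.

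The 4 receptors, the relatives, the cascade genes and the marker lists were chosen with earlier results of these data known. Named genes were the 4 receptors, their 3 nearest receptors by root mean square difference (not printed for Olfr558, at the background), relatives by family number, with the highest and lowest, and cascade genes past the threshold. Olfr545, Olfr557, Olfr617, Olfr618 and Olfr649, and the cascade genes named without passing, were named after their values were seen.

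The labels give octanoic acid and clean air pools the same numbers. Deviations of within-pool differences from their treatment means correlated by 0.179, 0.110, 0.237 and 0.100 between same-numbered pools, each over 0.1 (0.371, 0.100, 0.219 and 0.138 in GFP+ arrays and 0.408, 0.100, -0.0986 and 0.153 in GFP- arrays). The values of the differences pass 0.1 narrowly, GFP- arrays of number 3 do not. Alternatives were other scalings, flooring at the background, a filter on low values, quantile normalization, a random pool effect, a replicate block, leaving out each replicate, and 2 added after the data were seen.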

Additional observations from a re-analysis of the deposited data

Results flagged for a closer look

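For the 16 receptors of families 18, 31 and 42 and S100a5, 102 groups of 4 values (4 groups of arrays and the pool differences of both treatments) were tested for a sample far from the others, and 7 had one, where chance gives about 1 in 20. Olfr544 had 2 of them: 8.11 log2 in octanoic acid GFP+ cells of pool 1, with the others at most 7.33, and 6.90 in octanoic acid GFP- cells of pool 3, with the others at least 7.71. Pool 1 of clean air held 4 of them: Olfr543 at 4.58 in GFP+ cells (others up to 3.83), Olfr545 at 8.70 in GFP- cells (others up to 7.51), Olfr557 at 7.12 in GFP+ cells (others up to 6.28) and Olfr648 at 8.76 in GFP+ cells (others up to 7.31). Olfr619 stood at 6.96 in octanoic acid GFP+ cells of pool 2, with the others up to 4.60. No receptor of the 16 moved one way in every octanoic acid pool and the opposite way in every clean air pool.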

How the results depend on the processing

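Of 367 values of the 4 receptors under the alternatives, 360 kept their side of the threshold and direction where called. Many of these could hardly change. Each receptor has 1 probe set, and leaving out a pool of 1 treatment keeps the mean of the other. Of 19 alternatives each, the Olfr690 call was kept in 17 with octanoic acid and 18 with clean air. Olfr690 with octanoic acid stayed between -1.99 and -1.60 log2 with each replicate left out, but without octanoic acid pool 1 it was -1.60 with a limma adjusted p of 0.0519, and without octanoic acid pool 3 and clean air pool 4 together, chosen after the data were seen, it was -1.77 (adjusted p 0.0578), and -1.89 (adjusted p 0.0513) with clean air. Olfr690 with clean air lay between -2.68 and -1.58 with each replicate left out and stayed called. Olfr691 became called with each array centred on its median (0.90 with octanoic acid, 0.98 with clean air) and after quantile normalization (0.86 and 0.88). The number of genes called moved with the scaling. For octanoic acid it was 9506 with each array centred on its median (7791 higher and 1715 lower) and 2088 with values floored at the background, against 3347 (1221 higher and 2126 lower). For clean air it was 7653 (6082 higher and 1571 lower) and 1961, against 3006. Splits of higher and lower genes were 2587 and 2026, and 1813 and 1783, after quantile normalization, 689 and 1576, and 498 and 1856, with each array centred on its receptor median, and 304 and 3479, and 463 and 1864, with each array set against its own background (added after the data were seen), octanoic acid first. The median over all genes was 0.42 and 0.38 log2 with centring, 0.15 and 0.13, 0.19 and -0.06, and -0.35 and -0.01 with the others in that order, against 0.11. The odor effect had 1 gene called with values floored, Zfp874a (0.53 log2, adjusted p 0.038, against 0.94 as deposited), named after its values were seen. The replicate block changed no call of the 4 receptors and moved no count over all genes by over 1.5 times. Ano2, the 1 gene called with clean air in both the mature neuron and the cascade list, was lost under it. With this block Olfr690 was -1.77 (adjusted p 0.00251) and -2.10 (adjusted p 0.000845), and the smallest adjusted p of the odor effect was 0.781. A random pool effect had a correlation of 0.162. The cause of these changes was not tested.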

Other observations

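The receptors around Olfr690 and Olfr691 on chromosome 7, in RefSeq gene order, moved in different directions. Olfr686, before Olfr690, was -2.33 ± 0.68 log2 in GFP+ over GFP- cells with octanoic acid and -2.84 ± 0.47 with clean air (SD, n = 4 pools each, limma adjusted p 3.55e-05 and 7.96e-06). Olfr689 was 1.24 and 1.96 log2, Olfr692 1.47 and 2.21, and Olfr693 2.12 and 2.48, with octanoic acid and clean air in that order, and all 4 pools of each treatment were above 0 for these 3. Around Olfr558, Olfr556 was 2.05 and 2.67 log2, and Olfr555 was -1.41 with octanoic acid (limma adjusted p 0.00147) and -0.76 with clean air (adjusted p 0.0554). Olfr555 lay under the background in GFP+ and GFP- cells, and with clean air it passed under the replicate block (adjusted p 0.0168) and without clean air pool 3 (-1.08, adjusted p 0.00724). The Olfr689 call with octanoic acid was lost without octanoic acid pool 4 (1.10, adjusted p 0.0595). The neighbours were named after their values were seen.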
